A study of Mus musculus with 6 samples.

Results

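The 9 genes described here encode the ligands, the receptors, the secreted inhibitor and the transcription factors of Hedgehog signaling. They were taken by gene symbol from the 57010 genes of the count table, and every one of them was found once. The ligands are Shh, Ihh and Dhh, the receptors are Ptch1 and Smo, Hhip binds the ligands, and Gli1, Gli2 and Gli3 are the transcription factors. Each gene was compared between mandibular-derived monocytes, with 3 libraries named S16, S19 and S23, and femur-derived monocytes, with 3 libraries named S13, S15 and S18, the latter as the baseline. All libraries came from bone marrow of untreated C57BL/6 mice 1 year old. The methods of the study name the strain as C57Bl/6J and say that both males and females were used. For negative selection, unwanted marrow cells were labelled and held back on a magnetic column, and the cells that ran through were used as monocytes. The labels do not say which animal or sex each library came from, or whether animals were pooled, so the p-values measure the spread between these libraries, which may be technical.

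Hedgehog ligands are secreted proteins that bind Patched receptors. Without ligand, Ptch1 holds the membrane protein Smo inactive, and when ligand is bound, Smo signals through the primary cilium to the Gli factors. Gli1 and Gli2 mainly activate transcription, and Gli3 is known mostly as a repressor. Ptch1, Hhip and Gli1 are also classic target genes of the pathway, so that 2 of its inhibitors are part of a negative feedback. In bone, Ihh is made by chondrocytes of the growth plate, Shh is made by the epithelium of developing teeth, and Gli1 marks mesenchymal stem cells of the mouse incisor and the skull.

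The libraries held 15718782 to 25371474 counts on genes. Femur library S15 stood apart, with a count for 40494 genes, 13454 of them in no other library, whereas the other 5 libraries detected 17481 to 23513 genes, of which 77 to 417 were found in one library alone. Mandible library S23 differed in sex-linked genes, with 1441 counts per 1000000 (CPM) of Xist, against at most 0.553 CPM in the others. It had no count on 4 Y-linked genes, against 2772 to 4590 counts. This is the pattern of female cells in S23 and of male cells in the other 5 libraries, so sex was not balanced between the groups. The part of sex in the differences was not tested. Values without S15 or without S23 are given where they end a call or move a called difference by over 1.5 times. Levels are given in TMM-scaled CPM. Where a library has no count, a true level of up to 3 counts is possible, or 0.133 to 0.172 CPM depending on the library, from counting error only. Because the RNA is from bulk samples, fewer cells of a type and less RNA per cell cannot be told apart.

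The promoter windows of 4 called members are shown first, because Ptch1, Smo, Hhip and Gli3 were all higher in the mandible and 2 of them are known Hedgehog targets. RefSeq promoter entries on GRCm38.p6 matched 7 of the 9 members, and Shh and Gli1 had none. Each line below holds the 250 bases before the start of transcription, 5′ to 3′ on the strand of the gene. Capitals mark GC boxes, the letters GGGCGG or their reverse complement CCGCCC.

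Ptch1 (chr13:63565736-63565985, minus strand): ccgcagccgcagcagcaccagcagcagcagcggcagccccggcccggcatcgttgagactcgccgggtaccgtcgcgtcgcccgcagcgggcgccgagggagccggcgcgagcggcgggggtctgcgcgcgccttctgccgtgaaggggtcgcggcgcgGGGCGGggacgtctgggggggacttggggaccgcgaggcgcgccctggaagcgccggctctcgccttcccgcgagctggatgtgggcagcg

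Smo (chr6:29735247-29735496, plus strand): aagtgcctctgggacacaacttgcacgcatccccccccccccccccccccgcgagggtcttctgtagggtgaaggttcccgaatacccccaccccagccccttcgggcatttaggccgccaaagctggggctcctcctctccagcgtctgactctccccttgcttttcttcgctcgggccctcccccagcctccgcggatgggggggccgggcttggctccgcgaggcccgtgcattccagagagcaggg

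Hhip (chr8:80058009-80058258, minus strand): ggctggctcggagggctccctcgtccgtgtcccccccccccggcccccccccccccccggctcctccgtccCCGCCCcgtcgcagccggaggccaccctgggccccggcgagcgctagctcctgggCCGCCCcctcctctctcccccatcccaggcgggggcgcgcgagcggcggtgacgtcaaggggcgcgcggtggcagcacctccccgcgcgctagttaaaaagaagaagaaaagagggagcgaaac

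Gli3 (chr13:15463473-15463722, plus strand): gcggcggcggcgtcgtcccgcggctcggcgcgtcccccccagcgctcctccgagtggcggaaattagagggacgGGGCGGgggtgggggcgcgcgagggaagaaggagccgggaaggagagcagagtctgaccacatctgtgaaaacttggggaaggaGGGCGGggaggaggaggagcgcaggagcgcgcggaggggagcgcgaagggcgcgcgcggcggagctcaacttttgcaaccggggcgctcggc

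The windows of Hhip and Gli3 held 2 GC boxes each, that of Ptch1 held 1, and that of Smo held 0. A GC box was found in 6 of the 7 member windows and in 32.7% of the 32851 promoter windows of all genes. The member windows were rich in G and C, with 59.6% in Dhh, the lowest, 78.4% in Ptch1, the highest, and a median of 72.0%, against a median of 52.4% over all windows. The Gli binding letters GACCACCCA or their reverse complement TGGGTGGTC were in none of the 7 windows, with or without 1 letter changed, while 0.225% of all windows held them exactly and 5.79% with at most 1 change. These letters describe the window of 250 bases only, and sites farther away were not searched. The windows of Ptch1 and Gli3 lie inside the annotated genes, which span 63508328 to 63573598 and 15463235 to 15730026 on chromosome 13, and hold no annotated exon.

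Of the 9 members, 5 were called upregulated in mandibular-derived monocytes and 0 were called downregulated. The background for this count is 3.88% of the 18114 tested genes called higher in the mandible and 5.18% called in either direction, where a call needs a difference of 2-fold or more and an adjusted p below 0.05. Adjusted p-values are Benjamini-Hochberg values over all tested genes from the quasi-likelihood (QL) test of edgeR, unless another tool is named. The 5 were Ptch1, Smo, Hhip, Gli1 and Gli3. Shh and Gli2 were tested and not called, and Ihh and Dhh had too few counts to be tested. In 7 of the 9 members every mandible library lay above every femur library, as in 12.7% of all tested genes. Only Ptch1, Smo and Gli3 had enough counts in the femur to be tested through either group. Shh, Hhip, Gli1 and Gli2 passed the filter on low counts through their mandible libraries, so that a member of this kind could hardly be tested without being higher there. A two-sided exact permutation of the libraries on log2 CPM gave p = 0.1 for each of the 7, the smallest that 3 against 3 libraries allow.

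**Figure D1:**
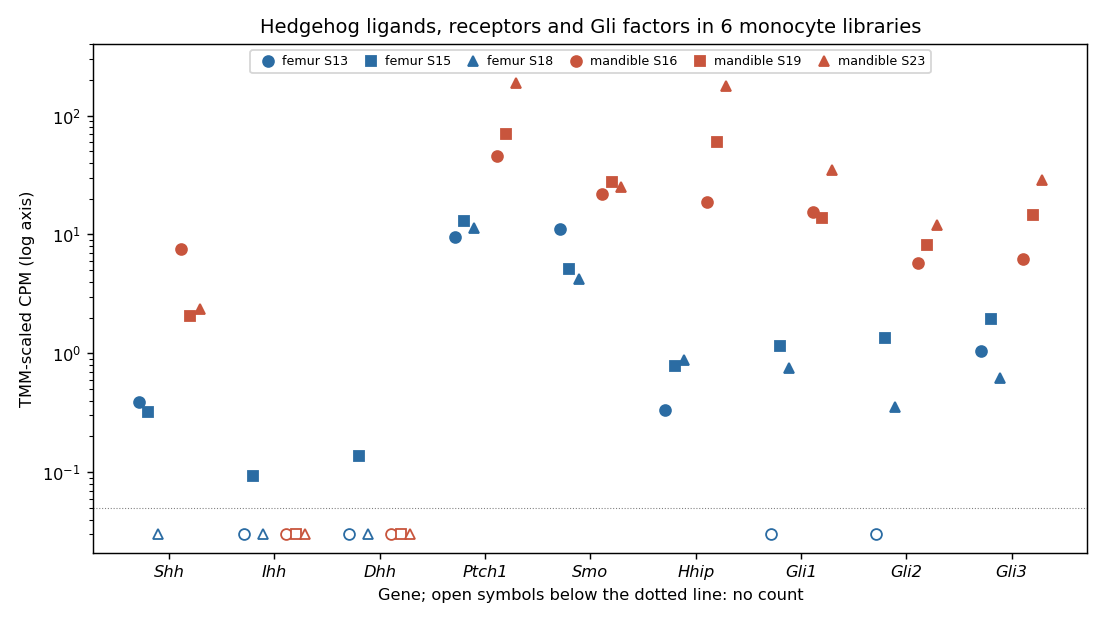
TMM-scaled CPM of the 9 members on a log axis, with 1 symbol per library, femur in blue and mandible in red, and open symbols below the dotted line for libraries without a count. In 7 members the red symbols lie above the blue ones, and Ihh and Dhh have counts in femur library S15 alone.

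Among the ligands, Shh, which acts in tooth and limb development, was the only one with counts in the mandible. It had 151, 43 and 41 counts in mandible libraries S16, S19 and S23 and 7, 7 and 0 counts in femur libraries S13, S15 and S18. In TMM-scaled CPM this was 7.56, 2.04 and 2.35 in the mandible, and 0.387, 0.323 and 0 in the femur. The groups did not overlap, and S16 was the highest library. The means were 3.98 ± 3.10 CPM in the mandible and 0.236 ± 0.207 CPM in the femur (SD, n = 3 per group). The log2 fold change of 4.05 (standard error 1.39) did not pass the threshold (edgeR QL adjusted p = 0.15). Without mandible S16 the log2 fold change was 3.20. The difference did pass with DESeq2 (adjusted p = 0.012) and with edgeR's exact test (adjusted p = 0.043). It passed in 0 of the 6 fits that left out 1 library, and in only these 2 of the 13 other alternatives that tested Shh. Shh lies on the minus strand of chromosome 5 from 28456815 to 28467256 of GRCm38, and its exons share 446 bases with the antisense gene 9530036O11Rik, which had 9 counts in femur S15 and none elsewhere.

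Ihh, which directs the growth plate of long bones, and Dhh, which is made by Schwann cells and in the testis, were close to absent at this depth. Ihh had 2 counts and Dhh had 3 counts, all of them in femur library S15. Ihh spans 74945315 to 74951672 on chromosome 1. No mandible library held a count of either gene, so that neither can be compared between the groups. Exons of Dhh on chromosome 15 (98891152 to 98898540) overlap those of Rhebl1 by 546 bases on the same strand and those of Gm49442 by 1107 bases on the other strand. Gm49442 had 28 counts in S15 and none in the other libraries, so the few Dhh counts of S15 are uncertain.

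Ptch1, the receptor that holds Smo inactive and is itself induced by the pathway, had 173, 282 and 255 counts in femur libraries S13, S15 and S18 and 915, 1469 and 3301 counts in mandible libraries S16, S19 and S23. Its levels were 9.56, 13 and 11.3 CPM in femur libraries and 45.8, 69.7 and 189 CPM in the mandible. All mandible libraries lay well above the femur, and S23 was the highest. The mean was 9.0 times higher in the mandible, with 101 ± 76.6 against 11.3 ± 1.72 CPM (SD, n = 3 per group). The log2 fold change was 3.17 (standard error 0.48, edgeR QL adjusted p = 0.0029). Ptch1 was called in all 20 alternatives, with the lowest log2 fold change, 2.30, without mandible S23.

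Smo, the membrane protein that passes the signal on, had the smallest difference among the tested members and spans 29735503 to 29761365 on chromosome 6. It was at 11.0, 5.16 and 4.24 CPM in femur libraries S13, S15 and S18 and at 22.0, 27.4 and 25.0 CPM in mandible libraries S16, S19 and S23. The mandible libraries were close to each other, and the femur library S13 came nearest to them. The means were 6.82 ± 3.69 and 24.8 ± 2.72 CPM (SD, n = 3 per group). The log2 fold change was 1.87 (standard error 0.43, edgeR QL adjusted p = 0.030). The call was lost without femur S15 (adjusted p = 0.055) or S18 (0.14), without mandible S16 (0.058), S19 (0.15) or S23 (0.090), without both S15 and S23 (0.10), and after a correction for gene length (0.078), all from the QL test.

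Hhip, a secreted and membrane-bound protein that captures Hedgehog ligands, showed the largest difference of the members. It had 6, 17 and 20 counts in femur libraries S13, S15 and S18 and 373, 1251 and 3109 counts in mandible libraries S16, S19 and S23. In CPM this was 0.331, 0.783 and 0.884 in the femur and 18.7, 59.4 and 178 in the mandible. The lowest mandible library was still far above the highest femur library, while the mandible libraries spread widely. The mean rose from 0.666 ± 0.294 to 85.3 ± 82.7 CPM (SD, n = 3 per group), a ratio of 128. The log2 fold change was 6.97 (standard error 0.83, edgeR QL adjusted p = 0.00059). Hhip was called in every fit that left out 1 library, at 5.79 without mandible S23, and was not called by limma-voom (adjusted p = 0.10). The gene spans 79965851 to 80058006 on the minus strand of chromosome 8.

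Gli1, an activator and the usual readout of the pathway, was higher in the mandible as well. It had 0, 25 and 17 counts in femur libraries S13, S15 and S18 and 310, 292 and 604 counts in mandible libraries S16, S19 and S23. This was 0, 1.15 and 0.751 CPM in the femur, and the mandible libraries were at 15.5, 13.9 and 34.5 CPM. The mean was 0.634 ± 0.585 CPM in femur libraries and 21.3 ± 11.5 CPM in mandible libraries (SD, n = 3 per group). The log2 fold change was 5.03 (standard error 0.92, edgeR QL adjusted p = 0.0083). Without mandible S23 it was 4.45 (adjusted p = 0.052), without femur S15 it was 5.70, and with limma-voom the adjusted p was 0.056. Exons of Gli1 on chromosome 10 (127329882 to 127341974) share 62 bases with Arhgap9 on the other strand. Arhgap9 had 1861 to 3507 counts in all libraries and 2212 counts in femur S13, where Gli1 had 0. Another antisense gene, Gm47200, shares 265 bases and had at most 17 counts.

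Gli2, the main activator downstream of Smo, was at 0, 1.34 and 0.353 CPM in femur libraries S13, S15 and S18 and at 5.75, 8.21 and 11.9 CPM in mandible libraries S16, S19 and S23. The groups did not overlap, with means of 0.563 ± 0.692 and 8.62 ± 3.09 CPM (SD, n = 3 per group). Its log2 fold change of 3.91 (standard error 1.12) was not called (edgeR QL adjusted p = 0.076). The gene spans 118834132 to 119053619 on the minus strand of chromosome 1. Femur S15 held 29 of the 37 femur counts of Gli2. Without S15 the gene was called, with a log2 fold change of 5.46 (edgeR QL adjusted p = 0.018). This was its only call in the 6 fits that left out 1 library. In the 13 other alternatives that tested Gli2 it was called in 3, DESeq2 among them (adjusted p = 0.0017). It was not called by limma-voom (adjusted p = 0.094) or without both S15 and S23 (edgeR QL adjusted p = 0.067).

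Gli3, known mainly as a repressor, had 19, 42 and 14 counts in femur libraries S13, S15 and S18 and 124, 305 and 505 counts in mandible libraries S16, S19 and S23. This was 1.05, 1.94 and 0.618 CPM in femur libraries and 6.20, 14.5 and 28.9 CPM in the mandible. The lowest mandible library exceeded the highest femur library, and the mandible libraries themselves differed widely. Between means of 1.20 ± 0.671 and 16.5 ± 11.5 CPM (SD, n = 3 per group), the log2 fold change was 3.77 (standard error 0.70, edgeR QL adjusted p = 0.0090). The call was lost without mandible S19 (adjusted p = 0.051), without mandible S23 (0.065, at a log2 fold change of 3.05) and with limma-voom (0.081). For both Gli1 and Gli3 femur S15 gave the most femur counts, 25 of 42 and 42 of 75.

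**Figure D2:**
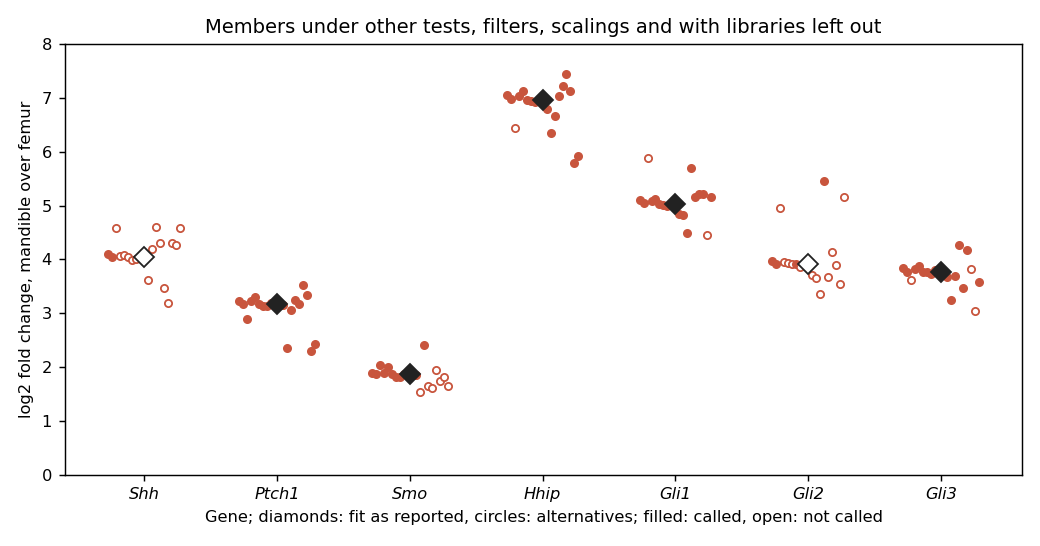
Log2 fold change (mandible over femur) of the 7 tested members in the fit as reported (diamonds) and under each alternative test, filter, scaling or left-out library (circles), filled where the gene was called. All values lie above 0. Ptch1 is filled throughout, and Smo, Shh and Gli2 are open in many fits.

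Levels of different genes are compared per kilobase of the gene length in the count table. In femur-derived monocytes Smo came first with 1.21 ± 0.657 CPM per kilobase (SD, n = 3), followed by Ptch1 with 0.795 ± 0.121, and these did not differ beyond their spread. Both lay above all other members, which had means of at most 0.127 CPM per kilobase. Gli1, Gli3, Shh, Gli2 and Hhip followed, each overlapping with the next. In mandibular-derived monocytes the order of mean levels was Hhip, Ptch1, Smo, Gli1, Gli3, Shh and Gli2, from 9.40 ± 9.11 CPM per kilobase for Hhip to 1.26 ± 0.450 for Gli2 (SD, n = 3). Each of these genes overlapped with the next one in the order. In mandible S16, Hhip lay below Smo, Ptch1, Gli1 and Shh.

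Ratios within a library do not depend on the scaling of the libraries. The log2 ratio of Hhip to Ptch1 per kilobase was -4.21, -3.41 and -3.03 in femur libraries S13, S15 and S18 and -0.65, 0.41 and 0.56 in mandible libraries S16, S19 and S23. The groups did not overlap in this ratio. The log2 ratio of Ptch1 to Gli1 per kilobase was 1.99 and 2.40 in femur S15 and S18, where Gli1 had counts, and 0.056, 0.82 and 0.94 in the mandible libraries. For Gli3 to Gli2 it was 0.053 and 0.33 in the same femur libraries and -0.37, 0.34 and 0.80 in the mandible, so that these groups overlapped. Ratios were chosen after the values were seen.

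The mandible libraries did not rank alike for all members. S23 was the highest for Ptch1, Hhip, Gli1, Gli2 and Gli3, and S16 was the lowest for Ptch1, Hhip, Gli2, Gli3 and Smo. For the ligand Shh, S16 was the highest. Together the 9 members took 18.1 to 23.9 CPM in the femur libraries and 121, 195 and 469 CPM in mandible S16, S19 and S23. Ptch1 and Hhip made up most of this in S23.

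Markers of other cell types moved in the same libraries. The labelled cell type was checked with 9 monocyte markers, whose summed level was 7015 to 13065 CPM in the femur libraries and 6161 to 10449 CPM in the mandible, with 0 of 9 called. Lyz2 alone was at 4630 to 10579 CPM in the femur libraries and 4620 to 7816 CPM in the mandible, so the sum mostly follows this gene. Of 12 mesenchymal and osteoblast markers, 11 were called higher in the mandible, and their sum was 191 to 226 CPM in femur libraries and 8797, 11507 and 15102 CPM in mandible S16, S19 and S23. Among them was Col1a1, the main collagen of bone. Of 9 dental epithelium markers, such as the amelogenin gene Amelx, 7 were called higher, with sums of 0.221 to 4.05 CPM in the femur libraries and 5772 to 11318 CPM in the mandible. Odam had no count in the femur. Both odontoblast markers were called higher, with sums of 1.98 to 4.02 and 40.8 to 54.5 CPM. Of 5 mural cell markers 2 were called higher, with sums of 7.95 to 18.8 and 49.2 to 146 CPM. Of 6 chondrocyte markers 3 were tested and 1 was called higher, with sums of 1.502 to 12.6 and 35.7 to 96.9 CPM. Matn3 had only 2 counts in the femur, both in S15, and none in the mandible. The 7 called dental epithelium markers passed the filter on low counts only through the mandible libraries. So did the mesenchymal markers Sp7, Bglap and Prrx1, the odontoblast marker Dspp, the mural marker Myh11 and the chondrocyte marker Col2a1. This largely fixed the direction of these calls. Of 4 megakaryocyte markers 3 were called lower in the mandible, as were 1 of 5 neutrophil and 2 of 4 erythroid markers. The neutrophil markers summed to 1403 to 12114 CPM in the femur libraries and 1440 to 3968 CPM in the mandible. Of 6 Schwann cell markers 3 were tested, of 6 endothelial markers 5 were tested, and 0 were called by the QL test of edgeR, at sums of 75.3 to 113 and 10.4 to 26.0 CPM over all libraries. The part of these cell types in the Hedgehog results was not tested.

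The members were also set beside the mesenchymal markers of the same library. Per 100 CPM of the 9 mesenchymal markers that are not collagens, Hhip was 0.248 to 0.731 CPM in femur libraries and 3.92 to 24.1 CPM in the mandible. Gli1 was 0 to 1.02 CPM in femur libraries and 3.25 to 4.68 CPM in the mandible on this scale, again without overlap. Ptch1 overlapped on it, with 7.16 to 11.5 CPM in femur libraries and 9.62 to 25.6 CPM in the mandible, and so did Smo, with 3.51 to 8.28 and 3.39 to 6.43 CPM, and Gli3, with 0.512 to 1.71 and 1.30 to 3.91 CPM. Gli2, with 0 to 1.18 and 1.21 to 1.92 CPM, and Shh, with 0 to 0.290 and 0.318 to 1.59 CPM, did not overlap. This scale depends on the markers it holds. In the femur its largest were Runx2, Ibsp and Lepr, with means of 36.1, 32.2 and 26.7 CPM. Their ratios of means, mandible over femur, were 2.42, 4.82 and 0.736. The rest had ratios from 3.55 for Pdgfrb to 67.9 for Bglap, with 31.6 for Prrx1, beside 33.6 for Gli1 and 128 for Hhip. Relative to all 12 markers, collagens included, the order of the groups was the opposite for Ptch1, with 42.2 to 58.9 CPM per 1000 CPM of markers in femur libraries and 5.205 to 12.5 in mandible libraries. Smo, with 22.2 to 48.8 and 1.66 to 2.50, and Gli3, with 3.24 to 8.70 and 0.705 to 1.91, were also lower in every mandible library on that scale. Hhip, with 1.46 to 4.62 and 2.12 to 11.8, and Gli1, with 0 to 5.18 and 1.205 to 2.29, overlapped on it, as did Gli2 and Shh. Both scales were chosen after the values were seen.

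**Figure D3:**
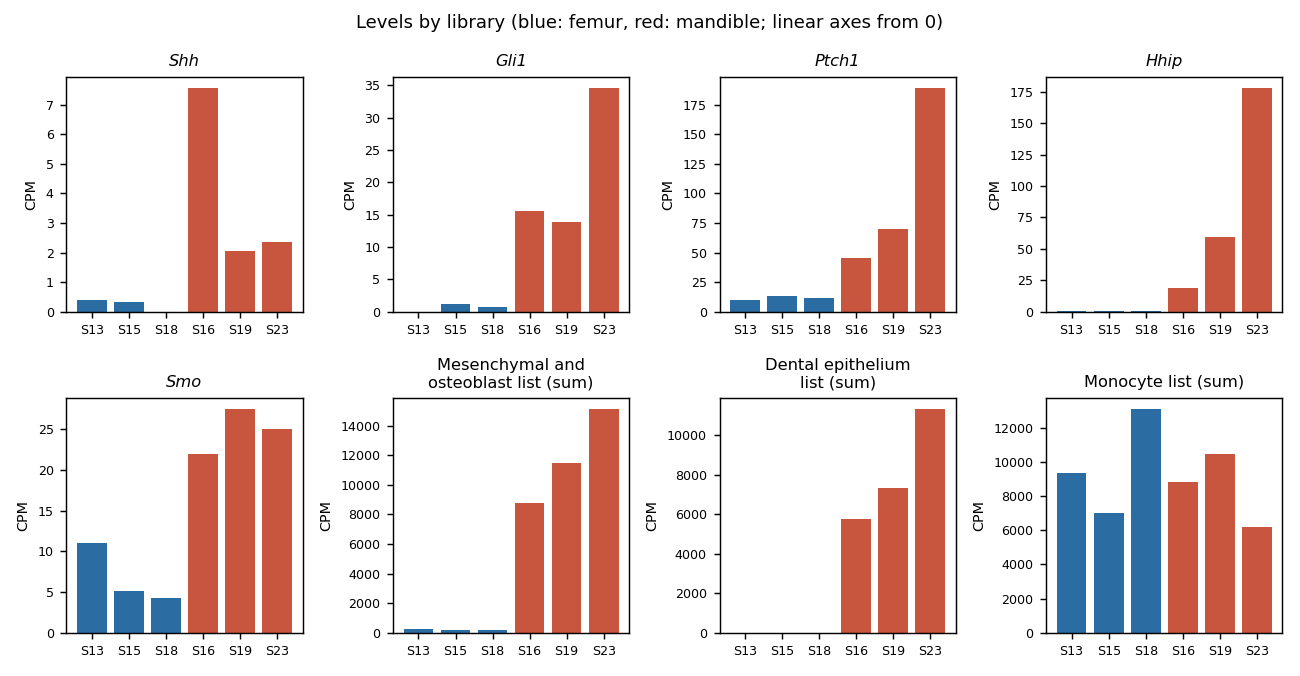
Bars give the TMM-scaled CPM of 5 members and the summed CPM of 3 marker lists in each of the 6 libraries, femur in blue and mandible in red, on linear axes from 0. Ptch1, Hhip, the mesenchymal list and the dental epithelium list are highest in mandible S23, Shh is highest in mandible S16, and the monocyte list overlaps between the groups.

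The other genes of the pathway were read from a list of 36 genes, of which 32 were tested. Of these, 10 were called higher in the mandible and 0 lower, 30 had a log2 fold change above 0, and the median was 0.98. Over all tested genes 3.88% were called higher, 47.8% had a log2 fold change above 0, and the median was -0.038. Of the 32 genes, 9 passed the filter on low counts only through the mandible libraries, which largely fixed their direction, and these include 6 of the 10 called genes, Scube3, Gas1, Gpc3, Evc2, Foxf1 and Foxf2. The other 4 called genes were Cdon, Boc, Evc and Kif7. Among the 22 genes over the filter in every femur library, 21 were above 0 and the median was 0.45. Of the 5 tested receptors and coreceptors 4 were called, and of the 8 genes that regulate Gli proteins inside the cell 0 were called by the QL test of edgeR.

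Gas1, Cdon and Boc, the coreceptors that help Ptch1 to bind ligand, all rose. Gas1 was at 0.221, 0.507 and 0.0442 CPM in femur S13, S15 and S18 and at 14.5, 18.6 and 28.4 CPM in mandible S16, S19 and S23. Its log2 fold change was 6.28 (standard error 0.75, edgeR QL adjusted p = 0.00062), and it was called in all alternatives that tested it, at 7.23 without femur S15. Cdon rose from 2.17 ± 1.24 to 15.1 ± 5.67 CPM and Boc from 1.53 ± 0.792 to 10.4 ± 5.17 CPM (SD, n = 3 per group), and the log2 fold changes were 2.79 and 2.75 (edgeR QL adjusted p = 0.020 and 0.036). Boc lost its call in each of the 6 fits that left out 1 library (adjusted p from 0.057 to 0.19) and with limma-voom (0.084), and Cdon in 4 of them, without S13, S18, S19 or S23 (0.068 to 0.10). Gpc3, a glypican that competes with Ptch1 for ligand, had the largest ratio among the called pathway genes with over 3 femur counts, with 0.336 ± 0.272 CPM in femur libraries and 65.4 ± 56.7 CPM in mandible libraries (SD, n = 3 per group). Its log2 fold change was 7.54 (standard error 0.85, edgeR QL adjusted p = 0.00045). It was 6.54 without mandible S23 and 8.16 without femur S15, and Gpc3 was not called by limma-voom (adjusted p = 0.11).

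Evc and Evc2 belong to the complex that binds active Smo near the base of the cilium. They were called together with Kif7, the kinesin that organizes Gli proteins at the tip of the cilium. Evc2 rose from 1.94 ± 1.56 to 23.6 ± 9.66 CPM (SD, n = 3 per group) and was called in all 6 fits that left out 1 library. The log2 fold changes were 3.09 for Evc, 3.60 for Evc2 and 3.18 for Kif7 (edgeR QL adjusted p = 0.027, 0.0082 and 0.013). The call of Evc was lost without S13, S18, S19 or S23 and that of Kif7 without S13, S19 or S23, at adjusted p up to 0.14. Without femur S15 the log2 fold changes were larger, at 4.14 for Evc, 4.34 for Evc2 and 3.96 for Kif7, and without mandible S23 that of Evc was 2.46. Iqce and Efcab7, listed under the same role and chosen after their values were seen, were not called. Their log2 fold changes were 0.16 and -2.12 (edgeR QL adjusted p = 0.91 and 0.59). For Efcab7 every femur library lay above every mandible library. The sign of Iqce turned in 2 of the 6 fits that left out 1 library. Grk2, a kinase with many receptor substrates besides Smo, had 359.9 ± 58.9 CPM in femur libraries and 379 ± 91.9 CPM in mandible libraries (SD, n = 3).

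Among genes for ligand release, Scube3 was at 0, 2.76 and 0 CPM in femur S13, S15 and S18 and at 13.9, 31.3 and 62.4 CPM in mandible S16, S19 and S23. All 60 femur counts of Scube3 came from S15. Its log2 fold change of 5.26 (standard error 1.28, edgeR QL adjusted p = 0.037) was not called by DESeq2 (adjusted p = 0.19), limma-voom (0.11) or without normalization factors (0.062), and the call was lost without S13, S18, S19 or S23, at 4.54 without S23. Without S15 both femur libraries are at 0, and the fitted value of 12.46 then depends on the prior count and is no estimate of the difference. Disp1, which exports the ligands from cells and was chosen after its value was seen, was at 8.32 ± 1.67 CPM in femur libraries and 18.5 ± 5.31 CPM in mandible libraries (SD, n = 3), without a call (edgeR QL adjusted p = 0.15).

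Of 9 genes reported to respond to Hedgehog signals in other tissues, 7 were tested and Foxf1 and Foxf2 were called. The median over the 7 was 0.92 on the log2 scale. Apart from Foxf1, Foxf2 and Pthlh, the tested response genes lay between 0.23 and 0.92, without a call in any fit. The forkhead factors Foxf1 and Foxf2 are known from mesenchyme next to Hedgehog-producing epithelium. Foxf1 had 2 counts in the femur, both in S15, and 61, 151 and 208 counts in mandible S16, S19 and S23. The ratio was 224 with a 95% exact interval from 61.6 to 1856 (edgeR QL adjusted p = 0.0050). This interval covers counting error only and not the spread between libraries. The log2 fold change of Foxf1 was 7.61, and 7.04 to 10.2 with 1 library left out. Without S15 no femur count of Foxf1 is left, so the fitted value there is no estimate of the difference. Foxf2 rose from 0.133 ± 0.192 to 15.01 ± 9.81 CPM (SD, n = 3 per group), and the log2 fold change was 6.69 (standard error 1.05, edgeR QL adjusted p = 0.0036). It was 8.92 without femur S18, which held 8 of the 9 femur counts, and 6.07 without mandible S23. Neither gene was called by limma-voom (adjusted p = 0.054 for Foxf1 and 0.096 for Foxf2). Pthlh, the gene of parathyroid hormone-related protein, was chosen after its value was seen. It had 2 counts in the femur and 150 in the mandible, a ratio of 80.01 (95% exact interval 21.8 to 667, counting error only), and was not called (edgeR QL adjusted p = 0.079).

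Of the 8 regulators of Gli proteins 0 were called, which lies near the 5.18% called in either direction over all tested genes. The means of the most abundant differed by less than 2-fold. Csnk1a1, a kinase that marks Gli proteins for processing, was at 230.01 ± 16.6 CPM in femur libraries and 283 ± 55.9 CPM in the mandible, and Spop, an adaptor for their degradation, at 128 ± 23.5 and 168 ± 18.9 CPM (SD, n = 3 per group). Neither was called (edgeR QL adjusted p = 0.69 and 0.52). Csnk1a1 overlapped between the groups, while for Spop every mandible library lay above every femur library, as in 12.7% of all tested genes. Sufu, the main inhibitor of Gli factors, chosen after its value was seen, differed by 0.26 on the log2 scale (standard error 0.34, edgeR QL adjusted p = 0.81), which turned to -0.16 after the length correction. The 4 genes that could not be tested were Disp2, Lrp2, Foxl1 and Nkx3-2. All 112 counts of Lrp2 and all 20 counts of Nkx3-2 were in femur S15.

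**Figure D4:**
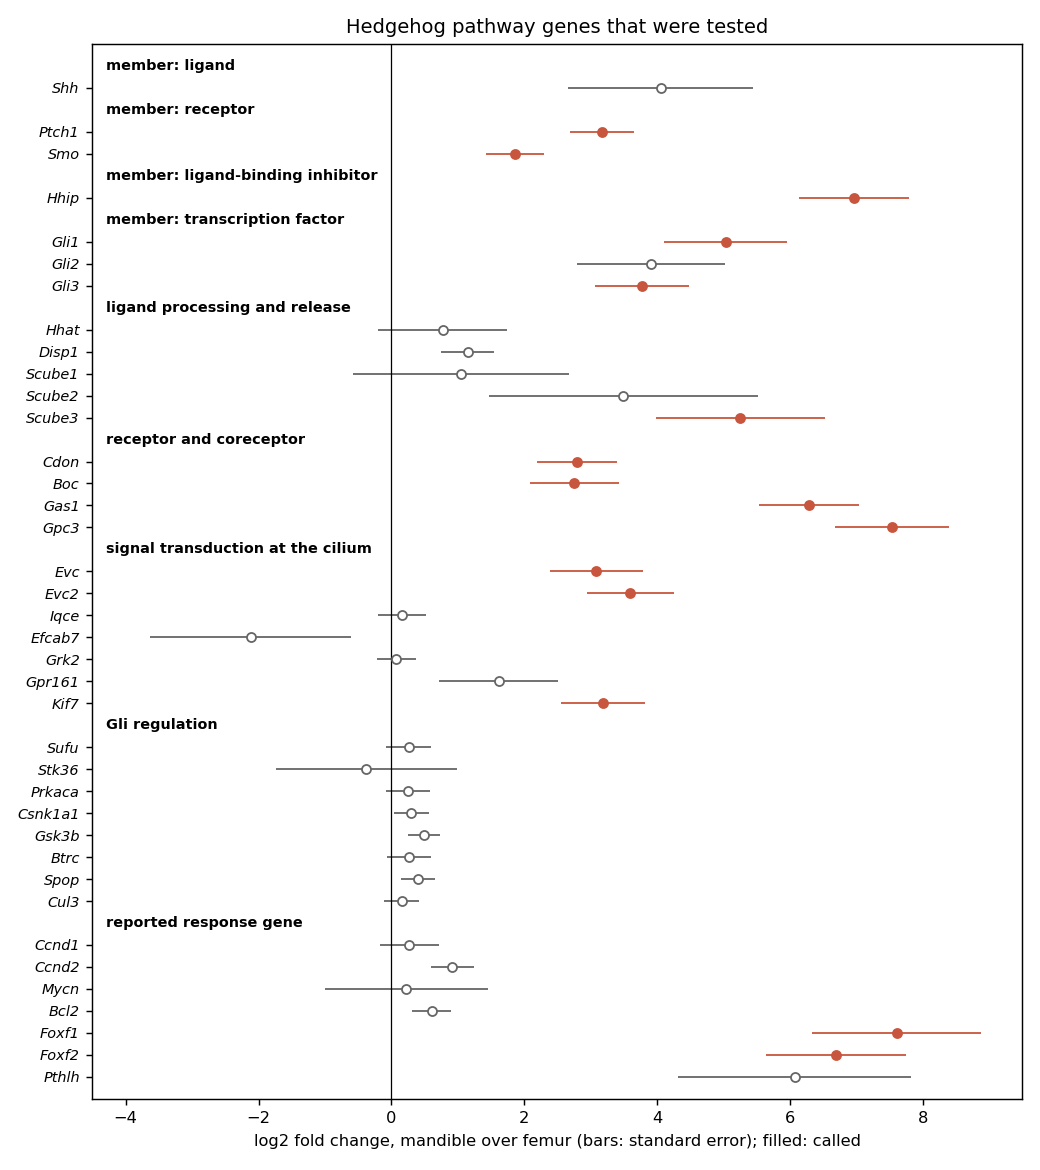
Fitted log2 fold change (mandible over femur) with its standard error for the 7 tested members and 31 of the 32 other tested pathway genes, grouped by role and filled where called. Filled symbols are found in every role except the ligands and the 8 Gli regulators, while the fits of Foxf1 and Pthlh rest on 2 femur counts each.

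Hedgehog signals of vertebrates pass through the primary cilium, and 22 genes for its transport, membrane and base were all tested. By the QL test of edgeR 0 of the 22 were called, which lies near the 5.18% called in either direction over all tested genes. An unadjusted p under 0.05 from this test was found for 6 of the 22 and for 2975 of all 18114 tested genes. DESeq2 called 2 of the cilium genes, edgeR's exact test 1 and limma-voom 0. For the 22 cilium genes the log2 fold changes had a median of 0.34, with 15 above 0. The most abundant were Kif3b, a motor of intraflagellar transport, with 50.2 ± 9.93 CPM in femur libraries and 52.4 ± 10.3 CPM in the mandible, Ift140 with 53.9 ± 20.8 and 47.7 ± 7.14 CPM, and Cep290 of the transition zone with 30.1 ± 4.17 and 32.9 ± 6.48 CPM (SD, n = 3 per group). Tulp3, which carries receptors into the cilium, was chosen after its value was seen. It was at 2.40 ± 2.04 and 16.6 ± 14.0 CPM (SD, n = 3), with an edgeR QL adjusted p of 0.063, and was called without femur S15 (adjusted p = 0.015).

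Across the 6 libraries, which include the difference between the groups, the genes most like each member were found by Pearson's r of log2 CPM, as a description. Hhip was most like Sesn3, Ppp1r3a and Nid1 (r from 0.997 to 0.999), and Ptch1 was most like Rab30, Mtmr10 and Adgrg6 (0.995 to 0.999). Gli1 was most like Lrp5, Ust and Rpl3l (0.997 to 0.998), Gli2 like Slc6a17, Trp63 and Prrx1 (0.998 each), and Gli3 like C1ra, Dlg5 and Zfhx4 (0.997 to 0.998). For Shh they were Hdgfl3, Zfp105 and Arid4b (0.987 to 0.992), and for Smo Klc4, the unnamed gene ENSMUSG00000120375 and Tmem98 (0.985 to 0.992). Between the members, r was highest for Ptch1 with Hhip, 0.989, and for Gli1 with Gli2, 0.986, and Smo with Gli2 was lowest, at 0.678. These are the highest of 18114 genes over 6 libraries, and they were not tested.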

How the data were processed

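RNA of 6 monocyte libraries was sequenced with paired-end reads. The authors trimmed the reads, mapped them to a genome named as GRCm38 with HISAT2 2.1.0 and used featureCounts to assign them to genes. The values deposited by the authors are raw read counts. Use of strand and of reads with several positions is not given in the sources used here. Of 52029 genes shared with GENCODE M21 (GRCm38), 2979 had a table interval inside the M21 gene, so positions come from M21 by Ensembl identifier. Most intervals of the count table thus did not match M21, although the methods name GRCm38. The exon overlaps given here are those of M21, and overlaps in the annotation used for counting may differ.

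Counts were filtered with filterByExpr (minimum count 10, minimum total 15), scaled by TMM and tested with edgeR 4.0.16 in R 4.3.3 (quasi-likelihood test, prior count 0.125, no covariates). All adjusted p-values are Benjamini-Hochberg values over all genes tested in a fit. Standard errors are the log2 fold change over the root of F. Permutation tests used log2 of CPM plus 0.1, and likeness used log2 CPM with a prior count of 2. Alternatives were limma-voom (limma 3.58.1), DESeq2 1.42.0, the exact test of edgeR, other scalings, filters, thresholds and priors, a loess correction for gene length (span 0.4), and each library left out. Leaving out S15 and S23 together was added after the data were seen. Scripts were tested on simulated data.

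The members and lists were chosen with earlier results of these data known. Named genes were all members, all called genes of the 2 other lists, up to 3 uncalled genes of highest level in each, and the 3 genes most like each tested member. A tested gene of the pathway list is counted with the others but not reported here. Marker genes were named where a result turned on them.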

Additional observations from a re-analysis of the deposited data

How the results depend on the processing

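All 136 values of the 7 tested members under the alternatives kept their direction. The call was the same in 116 of them, lost in 14 and gained in 6. The number of called members, 5, became 7 with DESeq2 and with edgeR's exact test, 6 with every gene tested, 4 with the length correction, 2 with limma-voom and 3 where each library had to reach 10 counts, which left 3 members tested, and ran from 2 to 5 with 1 library left out, with 2 when S23 was left out and 3 when S19 was. The 10 other pathway genes became 5 with limma-voom, 4 under that filter and 5 at an adjusted p under 0.01, and 5 to 9 with 1 library left out. Cilium genes called rose from 0 to 2 with DESeq2 and to 1 with edgeR's exact test, with every gene with a count tested, and under the same filter, and were 0 to 2 with 1 library left out. Over all genes the 938 calls became 1547 with DESeq2, 1450 with edgeR's exact test, 1590 with every gene tested and 445 at an adjusted p under 0.01, and 434 to 1565 with 1 library left out. The cause of these changes was not tested, except that stricter filters and thresholds test or call fewer genes. Without both S15 and S23, 4 members, 9 other pathway genes and 0 cilium genes were called.

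The length correction moved the median of all genes from -0.038 to -0.18, and turned Grk2 to -0.088, Sufu to -0.16, Csnk1a1 to -0.28, Kif3b to -0.20 and Cep290 to -0.50, none of them called. With 1 library left out the sign also turned for Grk2 (from -0.14 without S16, with -0.041 without S13, to 0.14), Ift140 (from -0.35 without S18 to 0.19 without S13), Kif3b (from -0.086 without S18, with -0.061 without S16 and -0.017 without S19, to 0.16 without S13) and Cep290 (from -0.066 without S23 to 0.22 without S19). No paired analysis was possible because the labels do not give the animal of each library. Whether femur and mandible libraries came from the same mice is not known.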
